A study of Mus musculus with 59 samples.

Results

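De novo lipogenesis is the route by which the liver turns surplus carbohydrate into fatty acids, and its genes were examined here for binding of BCL6, PPARα and PPARδ. The 10 genes were Srebf1, Mlxipl, Fasn, Acaca, Acacb, Acly, Scd1, Elovl6, Me1 and Thrsp. A binding site was counted for a gene if the centre of a ChIP-seq peak lay within the gene, or if its nearest protein-coding transcription start site (TSS) belonged to the gene and lay within 100 kb. By this rule 83 of 40474 sites belonged to the 10 genes, out of 21774 protein-coding genes. The only site whose nearest TSS was that of one of these genes at more than 100 kb was an Acaca site at 126840 bp, which counted because it lay within the gene. The farthest site counted by distance lay 94486 bp upstream of Elovl6.

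The peaks came from livers of male C57BL/6 mice, in 7 lists that each combined 3 biological replicates. BCL6, PPARα and PPARδ were each mapped in mice fed ad libitum and in mice fasted overnight, all wild type. The seventh list held BCL6 in fed mice of genotype Bcl6 fl/fl, whose sample titles read WT and which carry the floxed allele without deletion. It was kept apart from the C57BL/6 lists below. The lists gave positions without a peak height, count or p-value, so a site could only be called or not called in a list. There was no spread between replicates to set a difference against, and no test could be made. The depth is unknown, so numbers of sites in fed and fasted livers could also differ through depth, which was not tested. Shares carry 95% Wilson intervals for counting error alone, and the same share over all genes or all sites is given beside them. Ages of the mice were not given in the labels, and the lists held no measure of RNA with which to check the tissue.

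In the fed liver, insulin and glucose switch this pathway on through the transcription factors SREBP-1c, encoded by Srebf1, and ChREBP, encoded by Mlxipl. ATP citrate lyase (Acly) makes cytosolic acetyl-CoA, the acetyl-CoA carboxylases (Acaca, Acacb) make malonyl-CoA, and fatty acid synthase (Fasn) builds palmitate from it. During fasting the pathway is turned down while fatty acid oxidation, a process driven by PPARα, rises. BCL6 is a transcriptional repressor, and PPARα and PPARδ are lipid-activated nuclear receptors that bind DNA with RXR.

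A few sites show the DNA under these peaks. The first 4 windows below are the sites found in the most lists at Elovl6, Acacb, Scd1 and Mlxipl, 200 bp around the centre of the site on the plus strand of mm10. Capitals mark the match to a known element: a DR1, the direct repeat of AGGTCA with 1 base between that PPAR and RXR bind, in the Elovl6 and Acacb windows, a DR4, the same repeat with 4 bases between that LXR and RXR bind, in the Scd1 window, and a C/EBP element in the Mlxipl window. The DR1 had 1 mismatch at Elovl6 and 2 at Acacb, where it was on the minus strand. The DR4 at Scd1 had 2 mismatches and was also on the minus strand, and the C/EBP element at Mlxipl had 1 mismatch. None of these windows overlapped an exon of its gene. Windows chosen in the same way at Acaca, Me1 and Thrsp, called in 5 lists each, held no match and are not printed. Nor did that of Srebf1, called in 3 lists. Of all 83 windows, 45 held no match.
Elovl6, intron 2, 50159 bp downstream of the TSS, 7 lists, chr3:129582445-129582644: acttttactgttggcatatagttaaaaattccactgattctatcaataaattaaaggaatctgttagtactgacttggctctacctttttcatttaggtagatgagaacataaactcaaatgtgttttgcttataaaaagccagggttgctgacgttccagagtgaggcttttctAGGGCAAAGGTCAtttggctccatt
Acacb, promoter, 116 bp upstream, 6 lists, chr5:114146105-114146304: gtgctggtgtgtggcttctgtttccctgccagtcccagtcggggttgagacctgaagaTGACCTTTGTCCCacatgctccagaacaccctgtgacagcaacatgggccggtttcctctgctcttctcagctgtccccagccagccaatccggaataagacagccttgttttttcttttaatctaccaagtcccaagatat
Scd1, 10510 bp upstream, 6 lists, chr19:44418118-44418317: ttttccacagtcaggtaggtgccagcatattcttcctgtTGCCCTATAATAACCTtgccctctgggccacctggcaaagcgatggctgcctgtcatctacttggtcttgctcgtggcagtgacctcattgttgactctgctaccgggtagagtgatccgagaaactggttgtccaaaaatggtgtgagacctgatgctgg
Mlxipl, intron 1, 1470 bp downstream, 5 lists, chr5:135108261-135108460: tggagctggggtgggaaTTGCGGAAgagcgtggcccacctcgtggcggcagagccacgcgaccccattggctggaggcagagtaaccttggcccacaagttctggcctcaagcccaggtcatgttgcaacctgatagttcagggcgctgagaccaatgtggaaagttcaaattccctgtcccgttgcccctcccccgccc

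The next 2 windows are shown because they were the only sites of the 10 genes with BCL6 called in fed C57BL/6 livers but not fasted ones and PPARα the other way round. In fed Bcl6 fl/fl livers BCL6 was called at the Acly site and not at the Scd1 site. Neither holds a match to the 7 elements searched, so they carry no capitals.
Acly, 3258 bp upstream, chr11:100531158-100531357: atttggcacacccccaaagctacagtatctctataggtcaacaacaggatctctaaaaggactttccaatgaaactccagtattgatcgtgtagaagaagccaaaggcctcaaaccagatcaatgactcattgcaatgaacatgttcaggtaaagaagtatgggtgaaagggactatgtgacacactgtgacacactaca
Scd1, 20276 bp downstream of the TSS, beyond the gene, chr19:44387333-44387532: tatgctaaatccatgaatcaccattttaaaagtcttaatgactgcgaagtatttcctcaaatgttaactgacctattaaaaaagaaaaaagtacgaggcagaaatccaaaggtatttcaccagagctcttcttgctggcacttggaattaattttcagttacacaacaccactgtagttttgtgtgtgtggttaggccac

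The last 2 stretches hold the matches found in the 83 windows of 200 bp to the core of the sterol regulatory element (SRE), TCACNCCAC, to which SREBPs bind. Both matches are on the minus strand, so their reverse complement is in capitals, and both lie in a first exon at sites where PPARα was called in fasted livers only.
Srebf1, chr11:60222851-60222875: gcccccgaGTGGGGTGAcgcggcgt
Fasn, chr11:120824239-120824263: cgccgccgGTGGGGTGAtgcccgcg

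PPARα occupied every lipogenic gene in both feeding states. It had a site at 10 of 10 genes in fed livers, against 34.4% of all protein-coding genes, and at 10 of 10 in fasted livers, against 46.1%. BCL6 had a site at 9 of 10 genes in fed C57BL/6 livers (28.0% of all genes) and at 6 of 10 in fasted livers (20.7%). The Bcl6 fl/fl list had one at 9 of 10 (30.9%). The fed lists differed in the gene without a site, which was Srebf1 for C57BL/6 and Fasn for Bcl6 fl/fl. PPARδ was called at 10 of 10 genes in fed livers (18.6%) but at 4 of 10 in fasted livers (8.71%), and these were Acacb, Elovl6, Me1 and Thrsp. All genes include many that are silent in liver, and expression was not part of the lists.

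**Figure D1:**
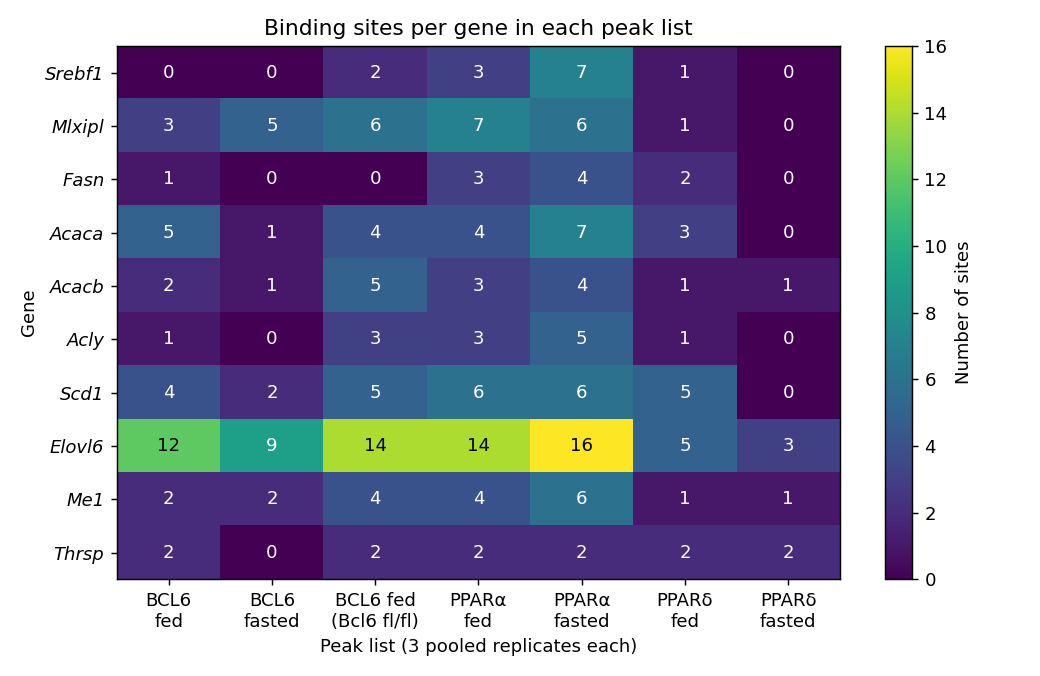
Number of binding sites of each gene (rows) in each of the 7 peak lists (columns); the colour scale and the printed figure both give the number. Elovl6 stands out with 9 to 16 sites in the BCL6 and PPARα lists, and 6 genes have 0 in the PPARδ list of fasted livers.

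The number of sites per gene ran from 4 at Fasn and Thrsp to 22 at Elovl6, with a median of 7. The median was 1 over all genes. Elovl6, which elongates palmitate to stearate, was in the top 0.308% of genes by number of sites. Acaca had 10 sites and Srebf1 9, numbers reached by 3.35% and 4.28% of genes. Scd1 followed with 8, Mlxipl and Acacb with 7, and Acly and Me1 with 6. Since a long gene or a gene far from others can collect more sites, sites were also counted per Mb of the territory in which a peak would count for the gene. By that measure Thrsp came top, with 220 sites per Mb, which rests on 4 sites in the smallest territory of the 10 genes, 18.2 kb. Acaca, with 36.8, came last and had the largest territory, 272 kb. The median was 99.6 sites per Mb for the 10 genes and 6.16 for all genes. Elovl6 had 107 sites per Mb, a density reached by 6.93% of all genes and close to the median of the 10 genes.

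**Figure D2:**
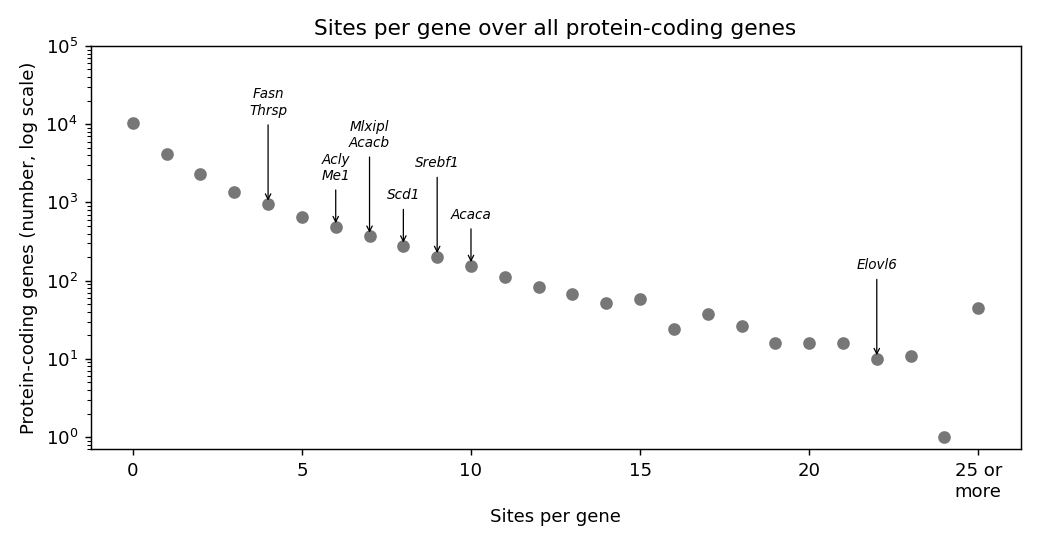
Number of protein-coding genes (vertical axis, log scale) with each number of sites (horizontal axis; the last point holds genes with 25 or more), with the lipogenic genes marked. The 10 genes lie between 4 and 22 sites, where the median gene has 1.

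The lipogenic genes were compared with 10 genes of fatty acid oxidation and with 34 other genes of the lipogenic pathway. The oxidation genes had a median of 3 sites but 110 sites per Mb, a density near that of the lipogenic genes. PPARδ in fasted livers was called at 10 of 10 oxidation genes and at 4 of 10 lipogenic genes, against 8.71% of all genes. Among the 34 other pathway genes it was called at 9 (26.5%). Of the 34 other pathway genes, 31 had a site (91.2%, against 52.6% of all protein-coding genes), with a median of 3 sites and 64.8 sites per Mb. The most were at Rxra, the partner of PPARs and LXRs, with 20, at Dgat2, which forms triglyceride, with 15, and at Elovl5, an elongase of polyunsaturated fatty acids, with 15. Mbtps2, the protease that releases active SREBP, Mcat, of mitochondrial fatty acid synthesis, and Mlx, the partner of ChREBP, had none.

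Between fed and fasted livers, BCL6 and PPARδ peaks at the lipogenic genes were fewer and PPARα peaks more numerous. BCL6 peaks numbered 32 in fed and 20 in fasted livers, a change of -37.5%, against -38.5% for the whole lists, which held 15642 and 9613 peaks. PPARα peaks numbered 49 and 63, a change of 28.6%, against 35.8% for lists of 21410 and 29085 peaks. PPARδ peaks numbered 22 and 7, a change of -68.2%, against -67.3% for lists of 7328 and 2399 peaks. The changes at the lipogenic genes were thus near those of the lists as a whole, and peaks at these genes made up 0.205% to 0.300% of each list.

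Site by site, 16 of 36 BCL6 sites (44.4%, interval 29.5% to 60.4%) appeared in the fed list alone, 16 in both lists and 4 (11.1%) in the fasted list alone. Over all 17577 BCL6 sites the shares were 45.3%, 43.7% and 11.0%. Leaving out Elovl6, which held 9 of the 16 sites called in both states, gave 13 fed only, 7 both and 4 fasted only of 24, so the share in both states fell from 44.4% to 29.2%. Of 71 PPARα sites, 8 (11.3%) were fed only, 41 (57.7%) were in both states and 22 (31.0%, interval 21.4% to 42.5%) were fasted only. All 33370 PPARα sites divided as 12.8%, 51.3% and 35.8%. Of 23 PPARδ sites, 16 (69.6%, interval 49.1% to 84.4%) were fed only, 6 (26.1%) were in both states and 1 (4.35%) was fasted only, against 70.7%, 18.7% and 10.6% of all 8194 sites. Each interval at the lipogenic genes included the share over all sites. At the oxidation genes, 12 of 23 PPARδ sites (52.2%, interval 33.0% to 70.8%) and 27 of 37 PPARα sites (73.0%, interval 57% to 84.6%) were called in both states, and these intervals overlapped those of the lipogenic genes. At the other pathway genes 61 of 162 PPARα sites (37.7%, interval 30.6% to 45.3%) were fasted only. There 10 PPARα sites (6.17%, interval 3.39% to 11.0%) were fed only. Of 76 BCL6 sites 25 (32.9%, interval 23.4% to 44.1%) were fed only and 42 (55.3%, interval 44.1% to 65.9%) in both states. Of these intervals only that of the fasted-only PPARα sites included the share over all sites. For the remaining states and for PPARδ the intervals included that share.

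**Figure D3:**
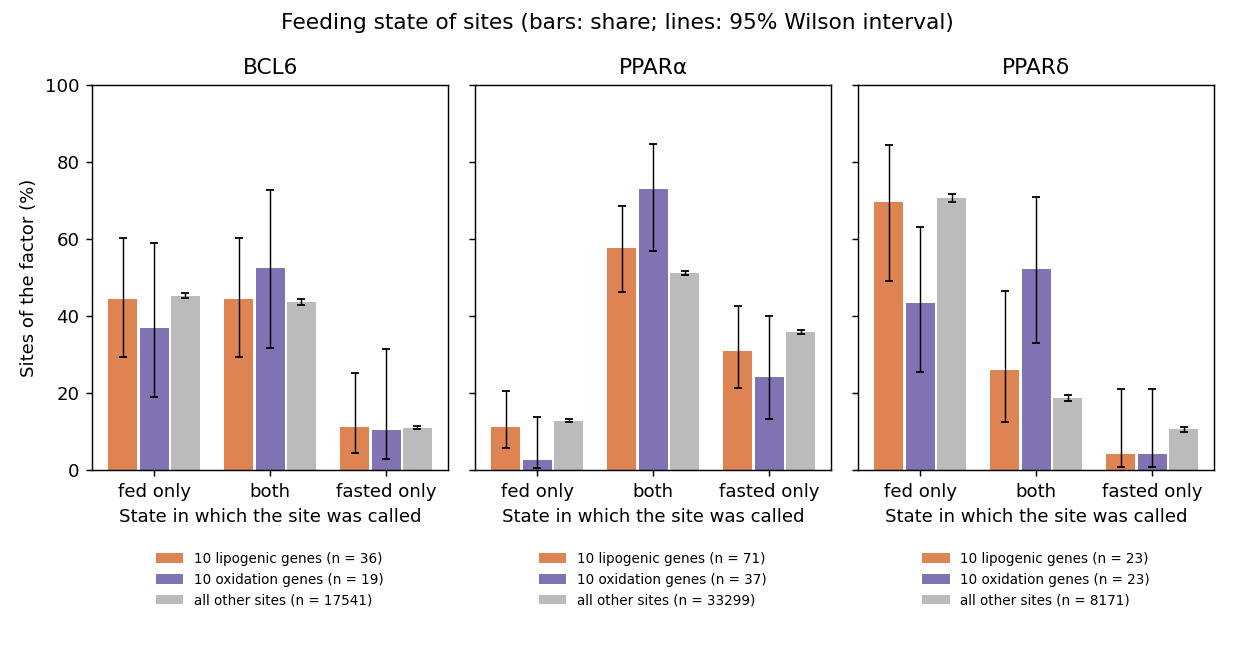
Share of the sites of each factor (vertical axis, percent) called in 1 feeding state or in both, for the 10 lipogenic genes, the 10 oxidation genes and all other sites; lines are 95% Wilson intervals. The lipogenic genes follow all other sites within their intervals, for example 69.6% of PPARδ sites in fed livers only.

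The regulators differed from each other in which factor bound them. Srebf1 had no BCL6 site in the C57BL/6 lists of either state and 2 in the Bcl6 fl/fl list. PPARα had 3 sites there in fed and 7 in fasted livers. The 4 sites called only in the fasted list included 3 in promoters, 93, 282 and 328 bp upstream of separate start sites of the gene, and 1 in coding exon 6. PPARδ had 1 site, 20558 bp upstream, in fed livers. The 3 distal sites of Srebf1, at 16492, 17396 and 20558 bp upstream, lay inside the neighbouring gene Tom1l2 and counted for it too. Mlxipl had 3 BCL6 sites in fed and 5 in fasted C57BL/6 livers, the only lipogenic gene with more in the fasted list, but 6 in the fed Bcl6 fl/fl list, so this direction did not hold against the other fed list. Its PPARα sites numbered 7 and 6, and 5 of its 7 sites were shared by BCL6 and PPARα. In its promoter, 82 bp upstream, PPARα was called in both states and BCL6 in the Bcl6 fl/fl list.

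The enzymes that make acetyl-CoA, malonyl-CoA and palmitate had 0 or 1 BCL6 site each in fasted livers. The mean over all protein-coding genes was 0.425, and Srebf1 and Thrsp also had 0 in fasted livers. Acaca, the cytosolic carboxylase, had 5 BCL6 sites in fed and 1 in fasted livers, while PPARα had 4 and 7. Its PPARδ sites numbered 3 and 0. An Acaca promoter site, 582 bp upstream, was called for PPARα in fasted livers only and for PPARδ in fed livers only. Acacb, the mitochondrial carboxylase whose malonyl-CoA restrains fatty acid import, had 2 BCL6 sites in fed and 1 in fasted livers, and the fasted one lay in the promoter. That promoter site, printed above with its DR1, was called in 6 of 7 lists and lacked only BCL6 in fed C57BL/6 livers. BCL6 in fed Bcl6 fl/fl livers was called there, so the fed lists differed from each other. Acly had 1 BCL6 site in fed and none in fasted livers, and PPARα had 3 and 5 there. Fasn had 1 BCL6 site in fed and none in fasted livers, none in the Bcl6 fl/fl list, and 3 and 4 PPARα sites. At 3 of the 4 Fasn sites, 5745, 7064 and 27090 bp upstream, the peak lay inside Ccdc57 and counted for that gene too. The remaining site, 267 bp downstream of the TSS in exon 1, was called for PPARα in fasted livers only and holds the SRE core.

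Of the 10 sites with all 3 factors, 7 lay at the desaturation and elongation genes Scd1 and Elovl6, and the others at Mlxipl, Acaca and Acacb. Scd1 and Elovl6 held 8 and 22 of the 83 sites. A factor counted if it was called in either feeding state of C57BL/6 livers. At the Mlxipl site BCL6 was called in fasted and PPARδ in fed C57BL/6 livers only. Scd1, the stearoyl-CoA desaturase, had 4 BCL6 sites in fed and 2 in fasted livers, 6 PPARα sites in each state, and 5 PPARδ sites in fed livers but none in fasted ones. Of its 8 sites, 3 held all 3 factors, at 10510 bp upstream and at 18806 and 27430 bp downstream. Near the TSS, 162 bp downstream in exon 1, PPARα was called in fasted livers only and BCL6 in the fed Bcl6 fl/fl list. Elovl6 had 12 and 9 BCL6 sites, 14 and 16 PPARα sites, and 5 and 3 PPARδ sites in fed and fasted livers. Of its 22 sites 11 were shared by BCL6 and PPARα and 4 held all 3 factors. The only 2 sites of the 10 genes found in all 7 lists lay in intron 2 of Elovl6, 50159 and 59528 bp downstream of the TSS.

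Me1, the malic enzyme that supplies NADPH, had 2 BCL6 sites in each state, 4 and 6 PPARα sites, and 1 PPARδ site in each state. Its promoter site, 161 bp upstream, was called in 5 lists, which were all but BCL6 in C57BL/6 livers. Thrsp (Spot 14), a thyroid hormone responsive gene that promotes lipogenesis, had 2 BCL6 sites in fed livers and none in fasted ones, and 2 sites in each state for PPARα and for PPARδ. It was the only lipogenic gene with a PPARδ site called in fasted livers only, 2927 bp downstream in intron 1, and with a site of BCL6 and PPARδ without PPARα, in its promoter 218 bp upstream and in fed livers only.

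**Figure D4:**
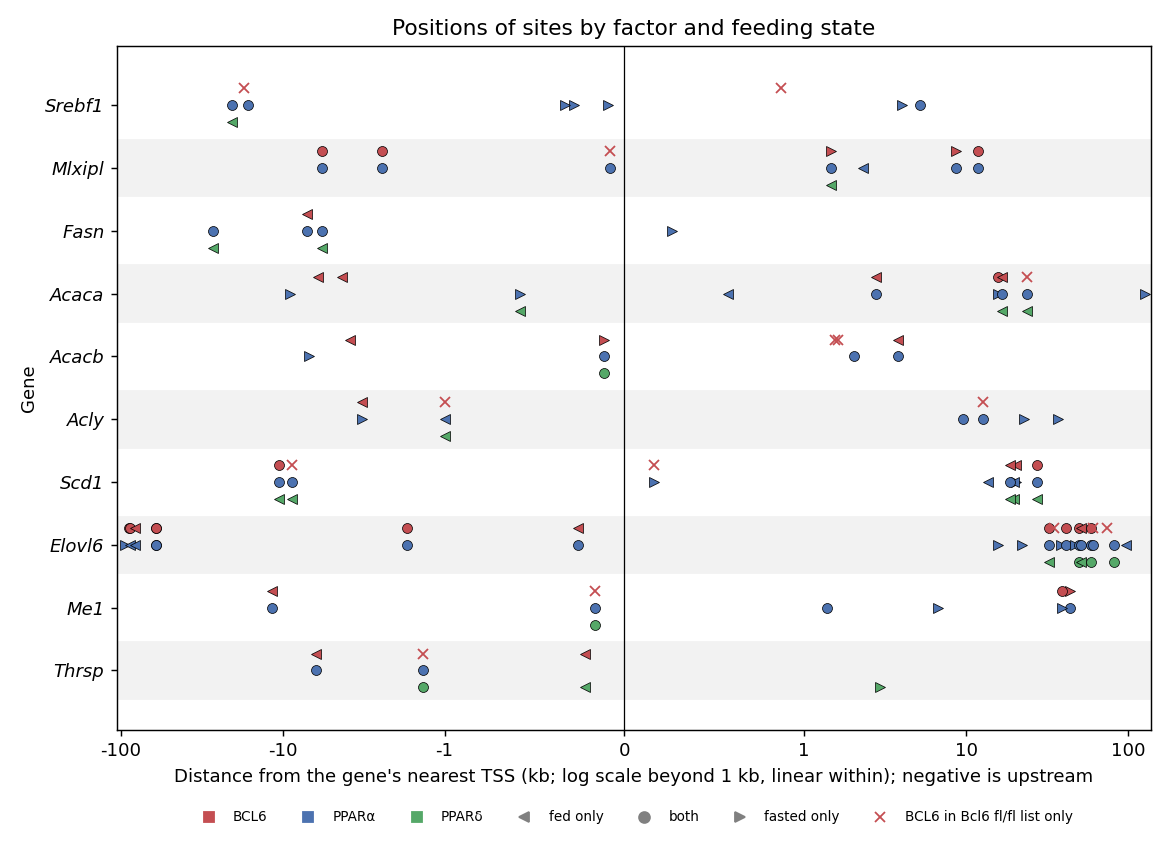
Position of every site relative to the nearest TSS of its gene (horizontal axis in kb, linear within 1 kb and log scale beyond; negative is upstream), with colour for the factor and the marker for the feeding state. Sites lie on both sides of the TSS, and Srebf1 carries 3 fasted-only PPARα promoter sites and no BCL6 site of the C57BL/6 lists.

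Most sites lay away from promoters, as over all sites. Promoters, from 1000 bp upstream to 100 bp downstream of any TSS of the gene, held 10 of the 83 sites (12.0%, interval 6.68% to 20.8%, against 13.1% of all sites), at 8 of 10 genes, against 21.9% of all genes. Introns held 47 sites, 31 lay outside the gene, 3 in 5′ UTR exons and 2 in coding exons. From the nearest TSS, 14 sites lay under 1 kb, 28 at 1 to 10 kb, 27 at 10 to 50 kb and 14 farther. PPARα was called at 9 of the 10 promoter sites, in both states at 4, in fasted livers only at 4 and in fed livers only at 1. In C57BL/6 livers PPARδ was called at 5 and BCL6 at 3, those of Elovl6 and Thrsp in fed livers and that of Acacb in fasted livers. The fed Bcl6 fl/fl list had BCL6 at 5 of the 10, including those of Elovl6 and Acacb but not that of Thrsp. Of the 22 fasted-only PPARα sites 4 were in promoters (18.2%, interval 7.31% to 38.5%), near the 23.2% over all fasted-only PPARα sites. The median distance to the nearest protein-coding TSS of any gene was 35849 bp for BCL6 sites called in both states and 5054 bp for those called in fed livers only, against 19774 and 23224 bp over all sites. With 16 sites in each class, 9 of the former being at Elovl6, this difference was not tested.

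Most BCL6 sites of the lipogenic genes were shared with PPARα, as were most over all sites. A site counted as shared if each factor was called in either feeding state of C57BL/6 livers, not always in the same state. Of 36 BCL6 sites 31 (86.1%, interval 71.3% to 93.9%) were shared with PPARα, against 77.6% of all BCL6 sites, and 9 of 10 genes had such a site, against 25.1% of all genes. Srebf1 was the exception. The shared sites numbered 11 at Elovl6, 5 at Mlxipl, 4 at Scd1, 3 each at Acaca and Me1, 2 at Acacb, and 1 each at Fasn, Acly and Thrsp. At all 31 the centres of the BCL6 and PPARα peaks were under 100 bp apart, with a median of 13.0 bp, and the median was 14.0 bp over all shared sites. In the other direction 43.7% of PPARα sites had BCL6, against 40.9% of all. Sites of all 3 factors numbered 10 and were found at 5 of 10 genes, against 12.5% of all genes. PPARα and PPARδ without BCL6 in the C57BL/6 lists made up 11 of 83 sites (13.3%, interval 7.56% to 22.2%), against 5.73% of all sites. BCL6 was called at 5 of these 11 in the Bcl6 fl/fl list, which left 6 sites (7.23%, interval 3.36% to 14.9%, against 3.55%) in no BCL6 list. PPARδ sites had PPARα in 91.3%, against 85.1% of all, and BCL6 in 47.8%, against 57.8%.

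At the 31 shared sites both factors were most often called in both states, at 12 sites (38.7%, against 44.0% of all shared sites). BCL6 was called in fed livers only while PPARα was called in both states at 9 sites (29.0%, against 25.1%), and in fasted livers only with PPARα in both states at 4 (12.9%, against 7.21%). The crossed pattern, BCL6 in fed and PPARα in fasted livers only, was found at the Acly and Scd1 sites printed above (6.45%, against 5.84%), and its opposite at none of the 31. Of the 22 PPARα sites called in fasted livers only, 17 (77.3%, interval 56.6% to 89.9%, against 81.3% of all such sites) had neither BCL6 in C57BL/6 livers nor PPARδ.

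The Bcl6 fl/fl list gave a second view of BCL6 in fed livers. It contained 26 of the 32 BCL6 sites of fed C57BL/6 livers (81.2%, against 69.6% of all such sites) and 20 of the 20 sites of fasted C57BL/6 livers (100%, interval from 83.9%, against 80.7%). Of its 45 sites at the lipogenic genes 15 (33.3%, against 32.2%) were in neither C57BL/6 list. The 4 sites called in fasted C57BL/6 livers only, 2 at Mlxipl and 1 each at Acacb and Me1, were therefore all called in the fed Bcl6 fl/fl list, so their absence from the fed C57BL/6 list did not hold in the other fed list.

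Sequence elements were sought on both strands in the 200 bp around each site. They were the BCL6 element TTCCTAGAA with up to 1 mismatch, DR1 and DR4 with up to 2, the C/EBP element TTGCGCAA with up to 1, and exact matches of the SRE core, the E-box CACGTG and the FOXA element TGTTTAC. A match was present in 38 of 83 windows, and no 2 different elements overlapped there. A DR1 was found in 12 windows (14.5%, against 13.1% of all other sites), a C/EBP element in 10.8% (9.38%), and a DR4 and a FOXA element in 6.02% each (4.71% and 7.45%). The BCL6 element was found in 5 windows (6.02%, interval 2.60% to 13.3%, against 10.8%), and in 2 of the 36 windows of BCL6 sites (5.56%, interval 1.54% to 18.1%, against 15.2%). It was found in 1 of 71 windows with PPARα (1.41%, interval 0.249% to 7.56%, against 7.63%) and in 4 of 12 without (33.3%, interval 13.8% to 60.9%, against 25.8%). The E-box, bound by ChREBP and USF factors, was found in 7 windows (8.43%, interval 4.15% to 16.4%, against 4.69%), which lay at Srebf1, Mlxipl, Acacb, Acly, Scd1, Elovl6 and Me1. The SRE core was found in 2 windows (2.41%, interval 0.663% to 8.37%, against 0.810%), those of Srebf1 and Fasn. For each of the 7 elements the interval over the 83 windows included the share at other sites, and so did that of the BCL6 element in BCL6 sites. In windows with PPARα that of the BCL6 element lay just below it. A match describes the letters of the window and does not show binding through them.

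**Figure D5:**
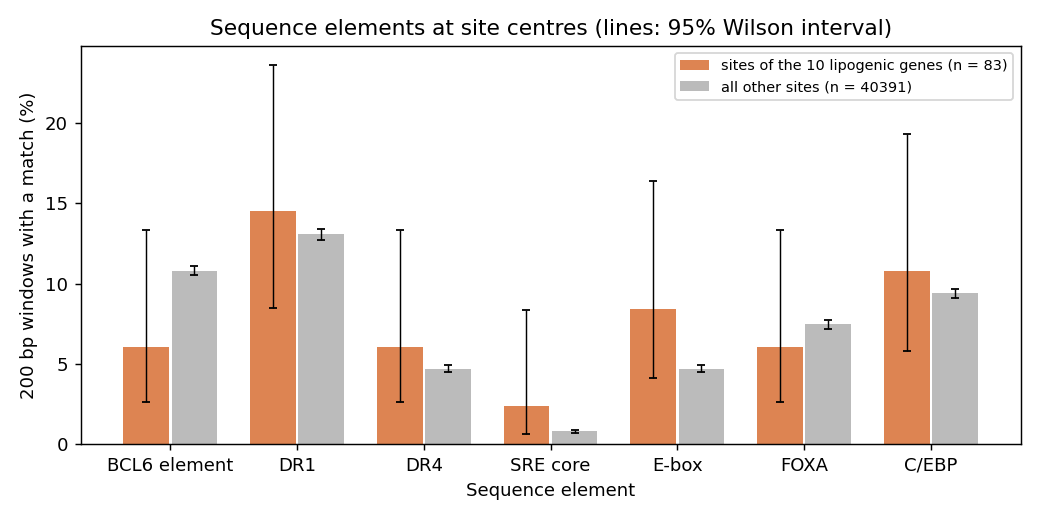
Share of 200 bp windows with a match to each element (vertical axis, percent) at the 83 sites of the lipogenic genes and at all other sites; lines are 95% Wilson intervals. DR1 is the most frequent at 14.5%, and the intervals of the 83 sites span the shares of all other sites.

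RefSeq promoter sequences of GRCm38, from 250 bp before to 50 bp after a TSS, were matched for 9 of the 10 genes, with 13 promoters. The BCL6 element was found in a promoter of Srebf1 (8.63% of 32851 promoters hold it), and the SRE core and the E-box in promoters of Mlxipl (1.24% and 7.15%). The FOXA and C/EBP elements were found in that of Elovl6 (3.65% and 5.92%). DR1 and DR4, present in 3.86% and 3.02% of promoters, had no match in these 13 windows. The 13 promoters did not cover every start site: Acacb has 4 start sites and had 1 promoter here. The DR1 printed above for the Acacb promoter site did not lie in that window.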

How the data were processed

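Binding of BCL6, PPARα and PPARδ in mouse liver was measured by ChIP-seq. Reads were placed on mm10 by the authors using Bowtie, with unique alignments and at most 1 read per start position kept. The authors ran HOMER on the pooled replicates relative to input to call peaks, which the authors filtered by fold enrichment and false discovery rate with DESeq2. The deposited lists give each peak as a chromosome with a start and an end, with no score, count or normalization, and peaks in a list share a width of 192 to 222 bp. Samples were grouped by their labels (21 of the series' 59), and the other samples (PPARα in floxed livers, BCL6 or PPARα in knockout livers and their controls, H3K27ac and input) were not used here. Reads with several placements were dropped, so near-identical sequences can lack peaks.

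Peak centres within 200 bp of each other in any of the 7 lists were joined into sites by single linkage. TSSs, genes and exons came from RefSeq on GRCm38.p6, the assembly of mm10. A gene's territory is the DNA in which a peak centre would count for it. Site locations use the coding transcript of the gene with the longest span. The 10 genes and the comparison lists were chosen with earlier results of these data known. All 10 genes are named, with the 3 other pathway genes with the most sites and those with none. The single oxidation genes that this rule also names are not reported here. Windows printed come from the site of a gene in the most lists (ties nearest the TSS), and from sites with opposite feeding states. The former are shown for 4 genes whose windows held a match. The 2 SRE stretches were chosen after their values were seen. Python 3.11.15, pysam 0.24.0, NumPy 2.4.6, SciPy 1.17.1 and Matplotlib 3.10.9 were used, and the functions were tested on simulated data. Alternatives changed the joining distance, the reach of a TSS, the choice of TSS, the fed BCL6 list and the motif windows and mismatches.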

Additional observations from a re-analysis of the deposited data

How the results depend on the processing

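Of 110 values of 18 results recomputed under other settings, 99 stayed within the limits set for counts (1.5 times) or for shares (their interval) and 11 moved. Without Elovl6, an alternative chosen after seeing the data, the sites shared by BCL6 and PPARα numbered 20 in place of 31. Those of all 3 factors numbered 6 in place of 10. Elovl6 held 11 and 4 of these sites, so both counts had to fall. The share of BCL6 sites with PPARα was 83.3% without Elovl6 and 86.1% with it. Sites of all 3 factors made up 9.84% and 12.0% of sites. In windows of 50 bp in place of 200 bp, the DR1 was found in 7.23% of sites, the DR4 and the SRE core in 0% each, the E-box in 3.61% and the FOXA element in 2.41%. With 1 mismatch fewer allowed, the BCL6 element was found in 2.41%, the DR1 in 3.61%, and the DR4 and the C/EBP element in 1.20% each. These settings search fewer bases or ask for closer matches. Stricter peak scores and leaving out single replicates were not run, because the lists carry neither scores nor values per replicate. No paired analysis was possible because each list pools its replicates. Depth is unknown, so a site not called in a list may still be bound below its threshold.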
